A study of Mus musculus with 48 samples.

Results

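The D-type cyclins *Ccnd1*, *Ccnd2* and *Ccnd3*, their kinases *Cdk4* and *Cdk6*, the E-type cyclins *Ccne1* and *Ccne2*, their kinase *Cdk2*, and the brakes *Cdkn1b* (p27) and *Rb1* were followed in the livers of 24 male mice. These 10 genes were taken by name, for their place in the G1 phase of the cell cycle, from 20622 genes with cytoplasmic RNA counts, of which 16269 had a transcript used for ribosome-protected fragments (RPFs). RPFs are the stretches of mRNA covered by a translating ribosome. The mice were wild-type (WT), Ctnnb1ex3/+ (B), R26-LSL-MYC (M) or Ctnnb1ex3/+; R26-LSL-MYC (BM), aged 2 to 4 months, and every group, WT included, received AAV8.TBG.Cre, at a dose that the sample labels give as 2e+11 GC per mouse and the protocol as the same number of GC per ml. TBG is a thyroxine-binding globulin promoter that drives Cre in hepatocytes, where recombination removes exon 3 of 1 *Ctnnb1* allele, stabilising β-catenin, or a stop cassette before the MYC transgene. Livers were taken 4 or 10 days later, from 3 mice per genotype and day, and each mouse gave 1 RPF library and 1 cytoplasmic RNA library. The liver was lysed whole, so that cells other than hepatocytes, in which this Cre is not active, also contributed.

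In G1, mitogens raise the D cyclins, which bind CDK4 or CDK6 and begin to phosphorylate the retinoblastoma protein RB. RB in its hypophosphorylated form holds the E2F factors, and its phosphorylation releases them to transcribe the E cyclins and the genes of DNA synthesis. Cyclin E with CDK2 then completes the phosphorylation of RB and starts S phase. p27 inhibits cyclin E-CDK2 and is itself titrated by the cyclin D complexes. In the adult liver hepatocytes are mostly quiescent, and cyclin D1 is the D cyclin best known for their return to the cycle. MYC binds the E-box and is known to act on *Cdk4* and *Ccnd2*, whereas *Ccnd1* has been described as a target of β-catenin with TCF/LEF factors in several cell types.

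3 of the kinase promoters are shown because they hold the motif of a factor that the genotypes or the G1 machinery use. The sequences are those of RefSeq on GRCm38.p6, 5′ to 3′ on the strand of the gene, and positions count from the transcription start. The E-box searched was CACGTG, the E2F motif was TTTCCCGC or TTTGGCGC, and the TCF/LEF motif was CTTTGAA or CTTTGAT, each on both strands. Capitals mark the E-boxes in *Cdk4* and *Cdk6* and the E2F motif, read here on the opposite strand, in *Cdk2*. The *Cdk4* stretch lies at chr10:127063348-127063534 (+) and covers positions -187 to -1, that of *Cdk6* at chr5:3343658-3343693 (+) covers -235 to -200, and that of *Cdk2* at chr10:128705169-128705206 (-) covers -155 to -118.
Cdk4: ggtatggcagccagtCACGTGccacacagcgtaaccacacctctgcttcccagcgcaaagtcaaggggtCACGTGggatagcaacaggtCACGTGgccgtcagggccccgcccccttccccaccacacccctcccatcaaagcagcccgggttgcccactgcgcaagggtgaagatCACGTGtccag
Cdk6: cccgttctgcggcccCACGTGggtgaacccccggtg
Cdk2: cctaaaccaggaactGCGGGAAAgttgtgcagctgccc
*Cdk4* held 4 E-boxes in the 300 bases from 250 before to 50 after its start, and *Cdk6* held 1. Of 32851 promoter windows of the same length, 7.15% held at least 1 E-box and 8 windows (0.0244%) held 4 or more. The E2F motif stood in 1.56% and the TCF/LEF motif in 8.65% of the windows, and the *Cdk4* window also held 1 TCF/LEF match. In the windows of *Ccnd3*, *Ccne1* and *Cdkn1b* none of these letters were found. A match is a description of the letters and was not tested as a binding site. 6 of the 10 genes were matched to a promoter entry, and *Ccnd1*, *Ccnd2*, *Ccne2* and *Rb1* were not.

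On GRCm39 the D cyclins lie at chr7:144483668-144493662 (*Ccnd1*), chr6:127102125-127129156 (*Ccnd2*) and chr17:47815767-47910624 (*Ccnd3*), and their kinases at chr10:126895180-126903789 (*Cdk4*) and chr5:3391485-3581008 (*Cdk6*). The E cyclins lie at chr7:37797404-37808264 (*Ccne1*) and chr4:11190303-11204947 (*Ccne2*), and *Cdk2* at chr10:128533796-128540963. The brakes lie at chr6:134897364-134902476 (*Cdkn1b*) and chr14:73421113-73563507 (*Rb1*). RPFs were counted on 1 transcript of each gene, and 20 codons at the start and 10 at the end of its coding sequence were left out. For *Cdk4* that transcript codes for 474 of the 909 bases of the longest coding sequence (52.1%), and for *Cdk2* for 894 of 1038 (86.1%), so that RPFs on the remaining bases of these genes were not counted.

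RPF libraries held 9742197 to 14380713 counts (median 12503695) and RNA libraries 3254141 to 6540116 (median 5077216). RNA of *Glul*, *Axin2* and *Lgr5*, targets of β-catenin, was higher in B and BM than in WT on both days, and that of *Notum*, another target, was higher except in BM at day 10 (0.75, adjusted p = 0.193). RPFs of *Myc* were higher in M and BM (log2 changes of 2.41 and 2.22 at day 4 and of 2.13 and 3.32 at day 10). RNA of *Myc* was not called in M and BM (0.16, adjusted p = 0.395 and -0.22, adjusted p = 0.284 at day 4, -0.43, adjusted p = 0.262 and 0.37, adjusted p = 0.439 at day 10). Both are counts on the mouse *Myc* gene. How far reads of the MYC transgene entered the RPF or the RNA counts was not tested. Mouse 1 of BM at day 10 stood apart from mice 2 and 3 of its group. Its RPF counts over all genes differed from theirs with a chi-square of 149.6 and 175.8 per degree of freedom, against 10.1 between mice 2 and 3, so called changes of BM from WT at day 10 are given with and without it, as are other values of the 10 genes where its removal ended or added a call. Without BM mouse 1, BM against WT at day 10 had 66.3% of all genes called in RPFs and 57.1% in RNA. With it the shares were 46.8% and 45.7%. Against M they were 59.2% and 50.4% without it and 32.7% and 32.9% with it. Calls gained without that mouse stand beside these shares. Levels below are counts scaled to a common library size (CPM) with TMM factors (trimmed mean of M values), listed for mice 1, 2 and 3 in that order. Scaled to library totals alone, the median of all genes in BM at day 4 lay 0.42 log2 above WT in RPFs and 0.54 in RNA, and it lay above WT by 0.10 to 0.43 in the other RPF and RNA comparisons with WT, so that each change is relative to that median. Summed RNA of 5 hepatocyte markers, all above 0 in every library, was 77886 to 86244 CPM in WT, 59206 to 77655 CPM in B, 46621 to 63973 CPM in M and 29086 to 36549 CPM in BM at day 4. At day 10 it was 83245 to 85422 CPM in WT, 29067 to 33947 CPM in B, 35199 to 44187 CPM in M and 28599 to 36508 CPM in BM. All mice of the mutant genotypes lay below WT on both days. The part of these markers in the results was not tested. Changes below are log2 changes ± SE from edgeR's quasi-likelihood test on 3 against 3 mice, called at an adjusted p (Benjamini-Hochberg over all genes tested) under 0.1.

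In RPFs, more of the 10 genes rose than fell in each of the 6 comparisons with WT, and over all genes the same held in 5 of the 6. In BM, at both days, the share called was close to that of all genes, so that the count itself says little of the 10. All 10 were tested in RPFs in every comparison. At day 4, 2 genes rose in B, *Cdk2* and *Cdk6*, where 12.5% of all genes tested were called in either direction. In M at day 4, *Cdk4*, *Cdk6* and *Ccne2* rose and *Ccnd1* and *Cdkn1b* fell, against 33.3% of all genes. BM at day 4 had 6 genes that rose and 0 that fell, against 50.9% of all genes. The 6 were both D-cyclin kinases, *Cdk2*, both E cyclins and *Ccnd1*. At day 10, 6 rose in B (*Ccnd1*, *Ccnd3*, *Cdk4*, *Cdk6*, *Ccne1* and *Ccne2*) and 0 fell, against 25.2% of all genes. In M at day 10, *Cdk4*, *Cdk6* and *Ccne1* rose and *Ccnd2* and *Cdkn1b* fell, against 19.4%. For BM at day 10, *Cdk4*, *Cdk6* and *Ccne2* rose and *Ccnd2* and *Cdk2* fell, against 46.8%. The median RPF change of the 10 genes was highest in BM at day 4, at 0.59, beside -0.0007 over all genes.

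BM was also set against M, which differs from it by the *Ctnnb1* allele. At day 4, RPFs of 6 genes (*Ccnd1*, *Cdk6*, *Cdk2*, *Ccne1*, *Ccne2* and *Cdkn1b*) were higher in BM and 0 were lower, against 38.2% of all genes. At day 10 *Cdk6* alone was higher and *Ccnd2*, *Ccne1* and *Cdk2* were lower, against 32.7%. Whether an effect differed between the days was tested as the effect at day 10 minus that at day 4. For B it was higher at day 10 for *Ccnd1* and *Ccne1* and lower for *Cdk2*, against 17.2% of all genes. For M, edgeR called 0 of the 10 genes, against 1.18% of all genes, with 3 at an unadjusted p under 0.05 and 0 by DESeq2. For BM it was lower for *Ccnd2* and *Cdk2*, against 35.7%.

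Fewer of the genes were called in RNA than in RPFs in each comparison with WT but that of BM at day 10, with 6 against 5. *Ccne1* had too few RNA counts to be tested in most comparisons, so 9 genes were tested except where 10 are stated. At day 4, RNA of *Cdk6* rose in B, against 8.14% of all genes. In M at day 4, *Cdk4*, *Cdk6* and *Ccne2* rose and *Ccnd1* fell, against 23.7%. RNA of 4 of 10 genes rose in BM at day 4 (*Cdk4*, *Cdk6*, *Ccne1* and *Ccne2*), against 41.9%. At day 10, *Ccnd1* and *Cdk6* rose in B, against 15.6%, and *Cdk4* and *Cdk6* rose in M, against 15.7%. For BM at day 10, *Cdk4*, *Cdk6*, *Ccne2* and *Rb1* rose and *Ccnd2* and *Cdkn1b* fell, against 45.7%. Between BM and M, 3 of 10 were higher in BM and 1 lower at day 4, against 30.5%, and 2 were higher and 2 lower at day 10, against 32.9%. For the difference between days, edgeR called 0 genes for B, against 9.31% of all genes, with 1 at an unadjusted p under 0.05 and 1, *Ccnd1*, by DESeq2. It called 0 of 10 genes for M, against 1.2%, with 1 at an unadjusted p under 0.05 and 0 by DESeq2, and 2 of 10, *Ccnd2* and *Cdkn1b*, both lower, for BM, against 29.9%. Scaled to library totals, the counts of genes up and down in RPFs moved to 5 and 1 in M and 9 and 0 in BM at day 4, against 44.3% and 68.2% of all genes called with that scaling. At day 10 they moved to 7 and 0 in B, 4 and 1 in M and 4 and 2 in BM, against 39.0%, 33.8% and 54.2%. In BM against M they moved to 8 and 0 at day 4 and 2 and 2 at day 10, against 48.3% and 35.4%. In RNA they moved to 6 and 1 in M and 9 and 0 in BM at day 4, against 53.3% and 72.7%, and to 4 and 1 in BM at day 10, against 58.9%. For RNA in BM against M they moved to 7 and 0 at day 4 and 4 and 1 at day 10, against 42.9% and 36.9%.

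**Figure D1:**
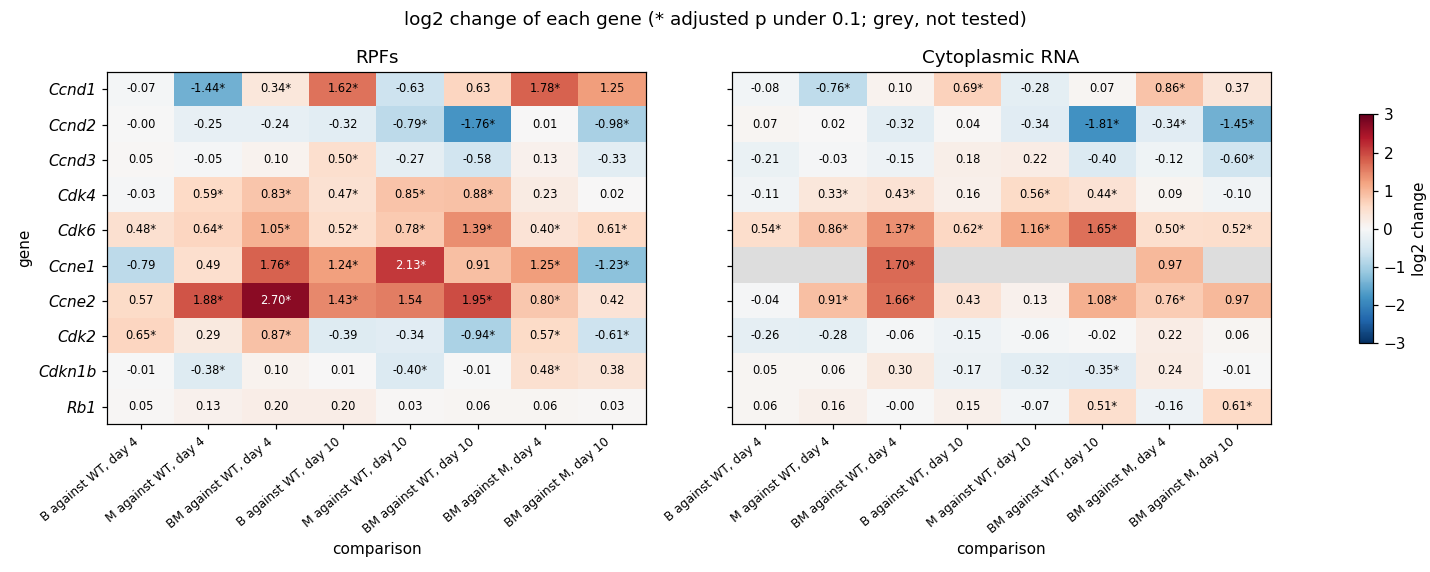
Log2 change of each of the 10 genes (vertical) in RPFs and cytoplasmic RNA for the 6 comparisons with WT and for BM against M at both days (horizontal), as colour and as the printed value, with an asterisk on changes called at an adjusted p under 0.1 and grey where a gene was not tested. *Cdk6* is positive and called throughout, the *Cdk2* values that were called stand in the RPF panel, and *Ccnd2* has its lowest values in BM against WT at day 10.

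*Ccnd1*, the D cyclin best known in hepatocytes, fell in M at day 4 and rose in B at day 10. RPFs were 39.2, 32.5 and 38.3 CPM in WT at day 4 and 14.8, 15.4 and 9.44 CPM in M. Every M mouse lay below every WT mouse, and the change was -1.44 ± 0.17, or 0.369-fold (adjusted p = 0.000326). RNA was 75.3, 79.7 and 84.4 CPM in WT and 44.1, 49.1 and 45.0 CPM in M, a change of -0.76 ± 0.10 (adjusted p = 0.000141). RPFs of BM at day 4 were 45.4, 43.1 and 50.3 CPM, each above the WT mice and above all M mice. The change was 0.34 ± 0.10 from WT (adjusted p = 0.0196) and 1.78 ± 0.16, or 3.43-fold, from M (adjusted p = 6.74e-05). The former was not called with all 24 mice in 1 fit (adjusted p = 0.554). In B at day 4, with 22.9, 43.3 and 40.5 CPM, it was not called (-0.07, adjusted p = 0.901), and the B and WT mice overlapped.

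At day 10 the WT level of *Ccnd1* RPFs was 18.1, 26.6 and 12.6 CPM and that of B was 44.0, 50.0 and 84.8 CPM. The 3 B mice lay above all WT mice, and *Ccnd1* rose by 1.62 ± 0.31, or 3.08-fold (adjusted p = 0.00785). Its RNA was 51.1, 78.4 and 61.3 CPM in WT and 78.5, 90.4 and 136 CPM in B and rose by 0.69 ± 0.22 (adjusted p = 0.0647), a call that ended without WT mouse 1 or 3 or B mouse 2 or 3 (adjusted p = 0.11 to 0.242). The RPF effect of B was larger at day 10 than at day 4 by 1.69 ± 0.41 (adjusted p = 0.0187), with lower WT and higher B levels at day 10. M at day 10 had 12.2, 11.5 and 13.6 CPM, not called against WT by edgeR (-0.63, adjusted p = 0.123) but called by DESeq2 (adjusted p = 0.0852). BM at day 10 had 57.5, 16.1 and 16.4 CPM, of which mouse 1 alone lay above the WT mice. The change of the BM effect from day 4 to day 10 was 0.30, adjusted p = 0.734 with that mouse and -0.61, adjusted p = 0.0787 without it. The change from WT was 0.63, adjusted p = 0.362 with mouse 1 and -0.25, adjusted p = 0.407 without it, and the change from M was 1.25, adjusted p = 0.102 with it and 0.42, adjusted p = 0.0312 without it. With that mouse the latter was called by DESeq2 (adjusted p = 0.0372) and with all 24 mice in 1 fit (adjusted p = 0.0107). *Glul*, *Axin2* and *Lgr5* were also highest in that mouse among the BM mice of day 10.

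*Ccnd2*, a D cyclin also made by other liver cells, fell in BM at day 10. Its RPFs were 10.1, 7.72 and 10.7 CPM in WT, 5.06, 6.16 and 5.24 CPM in M and 3.90, 1.86 and 2.64 CPM in BM. The 3 groups did not overlap, and the change from WT was -0.79 ± 0.18 in M (adjusted p = 0.0252) and -1.76 ± 0.29, or 0.295-fold, in BM (adjusted p = 0.00381). Without BM mouse 1 it was -2.08, adjusted p = 4.1e-05. RNA of *Ccnd2* was 21.7, 15.9 and 16.5 CPM in WT and 9.10, 2.30 and 3.46 CPM in BM and fell by 1.81 ± 0.41 on the log2 scale (adjusted p = 0.00909), whereas in M it was 12.2, 13.7 and 15.4 CPM and was not called (-0.34, adjusted p = 0.249). At day 4 the BM level was 7.53, 7.56 and 7.30 CPM in RPFs, against 8.14, 10.4 and 8.23 CPM in WT, and was not called (-0.24, adjusted p = 0.207). The RNA change in BM at day 10 was -2.67, adjusted p = 1.6e-05 without BM mouse 1, and that from M -2.30, adjusted p = 0.000104. The effect of BM was lower at day 10 than at day 4, by -1.50 ± 0.32 in RPFs (adjusted p = 0.00561) and -1.49 ± 0.42 in RNA (adjusted p = 0.0222), and without BM mouse 1 of day 10 by -1.86, adjusted p = 8.4e-05 in RPFs and -2.36, adjusted p = 1.66e-05 in RNA. BM lay below M at day 10 in RPFs (-0.98, adjusted p = 0.0501), which was not called without M mouse 1 or 2 or BM mouse 2 or 3 (adjusted p = 0.132 to 0.169), and in RNA (-1.45, adjusted p = 0.0377), which was not called without M mouse 2 or BM mouse 2 or 3 (adjusted p = 0.102 to 0.107). At day 4 the RNA of BM was also called below M (-0.34, adjusted p = 0.0799), a call that was lost whichever of the 6 mice was left out (adjusted p = 0.107 to 0.215) and by DESeq2 (adjusted p = 0.263).

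In bulk liver, fewer cells of a type and less RNA per cell cannot be told apart. Summed RNA of 6 endothelial markers was 255 to 318 CPM in BM and 415 to 431 CPM in WT at day 10, and that of 6 stellate markers 233 to 259 and 441 to 526 CPM, all of them lower in BM. In RPFs the endothelial sums were 555 to 706 and 664 to 775 CPM and the stellate sums 700.4 to 734 and 762 to 911 CPM. The sums of 5 Kupffer cell markers were higher in BM, at 266 to 312 against 219 to 258 CPM in RNA. At day 4 these sums were lower in BM than in WT in RPFs, without overlap, at 542 to 594 against 669 to 751 CPM for endothelial, 465 to 585 against 707 to 785 CPM for stellate and 309 to 324 against 523 to 607 CPM for Kupffer cell markers. Those of 5 cholangiocyte and 5 leukocyte markers were too, at 36.2 to 54.1 against 85.2 to 133 CPM and 17.5 to 22.1 against 33.6 to 46.3 CPM. No endothelial, stellate or Kupffer marker was at 0 in a library, and the part of these markers in the change of *Ccnd2* and in the changes of BM at day 4 was not tested.

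*Ccnd3*, the third D cyclin, was not called in RPFs at day 4, when they were 16.1, 16.4 and 15.7 CPM in WT and 18.4, 15.0 and 17.7 CPM in BM (lowest adjusted p over the comparisons of day 4 = 0.449). At day 10 it was 16.0, 20.3 and 14.6 CPM in WT and 28.1, 24.6 and 20.2 CPM in B. The groups overlapped by 1 mouse on each side, and the rise of 0.50 ± 0.16 (adjusted p = 0.0669) was not called without WT mouse 1 or 3 or B mouse 1 or 2 (adjusted p = 0.161 to 0.229). BM at day 10 had 17.3, 8.28 and 8.65 CPM, with mouse 1 within the WT range and mice 2 and 3 below it. The change was -0.58, adjusted p = 0.167 with mouse 1 and -1.01, adjusted p = 0.000705 without it. With mouse 1 and all 24 mice in 1 fit it was called (adjusted p = 0.0291). Without mouse 1 the level in BM was also below M (-0.70, adjusted p = 0.0045, against -0.33, adjusted p = 0.43 with it). Likewise the BM effect was lower at day 10 than at day 4 (-1.12, adjusted p = 0.000401, against -0.66, adjusted p = 0.17 with it). Summed CPM of 5 leukocyte markers was 42.5 to 76.6 in B and 28.1 to 47.1 in WT at day 10 in RPFs and 25.9 to 36.3 and 18.9 to 27.6 in RNA. The part of these markers in the rises of *Ccnd3* and *Cdk6* in B was not tested. Its RNA was called once, lower in BM than in M at day 10 (-0.60, adjusted p = 0.064), and this was not called without M mouse 1 or 2 or BM mouse 2 or 3 (adjusted p = 0.101 to 0.211) nor by DESeq2 (adjusted p = 0.173).

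**Figure D2:**
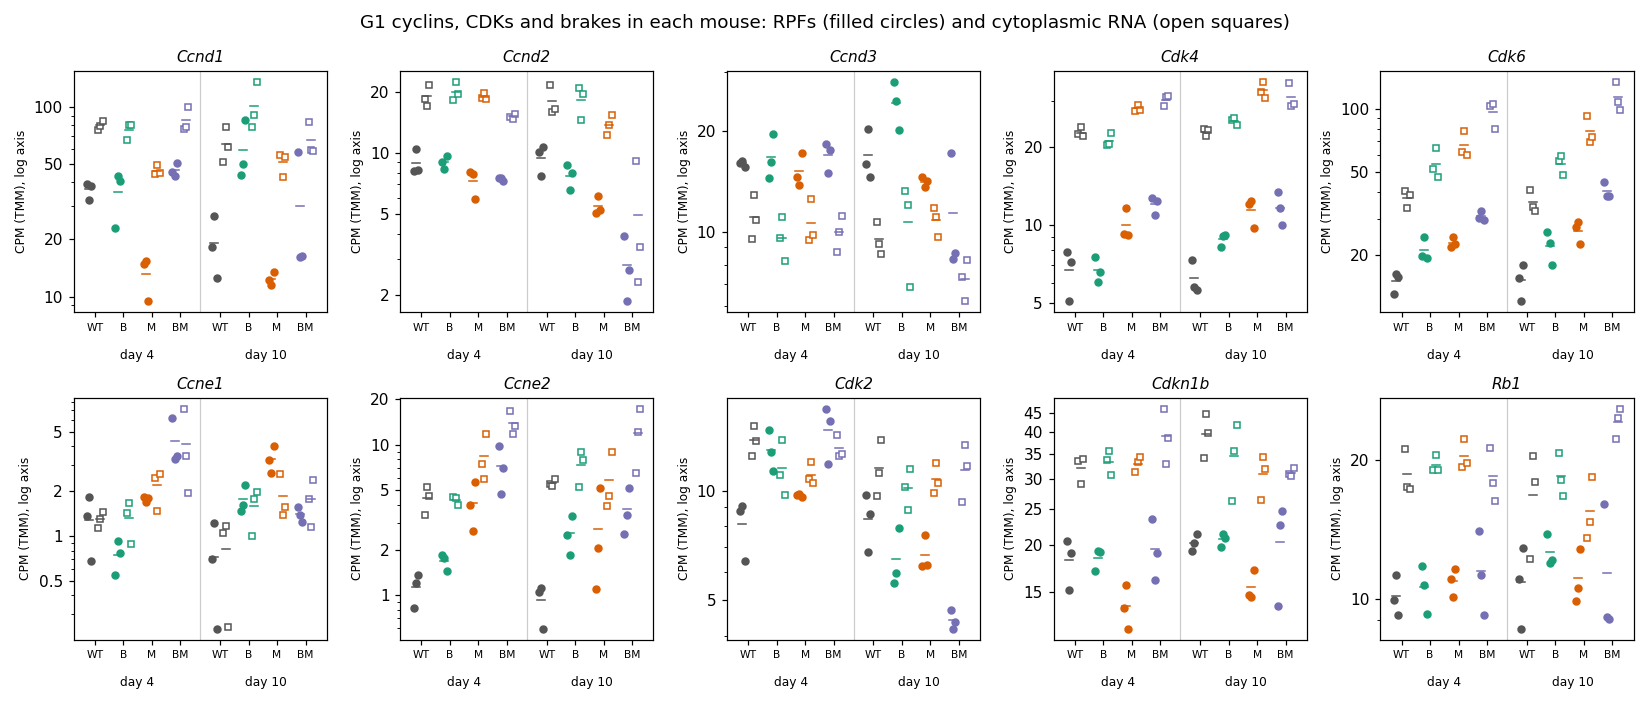
RPF level (filled circles) and cytoplasmic RNA level (open squares) in CPM (TMM scaled, log axis) of the 10 genes in each of the 24 mice, by genotype and day, with a line at the mean of 3 mice. The RPFs of *Ccnd1* in the 3 M mice of day 4 lie below all WT mice of that day and 1 BM mouse of day 10 stands at 57.5 CPM, above the other BM mice of that day, and both levels of *Ccnd2* are lowest in the BM mice of day 10.

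*Cdk6*, a kinase partner of the D cyclins, was higher in every genotype and on both days, in RPFs and in RNA. At day 4 its RPFs were 13.1, 16.4 and 15.8 CPM in WT, 19.9, 24.4 and 19.5 CPM in B, 21.8, 24.4 and 22.6 CPM in M and 30.3, 32.7 and 29.7 CPM in BM. All mice of each mutant genotype lay above the WT mice, and the BM mice above all others. The rise was 0.48 ± 0.13 in B (adjusted p = 0.0501), 0.64 ± 0.11 in M (adjusted p = 0.00282) and 1.05 ± 0.11, or 2.07-fold, in BM (adjusted p = 2.65e-05). RNA of *Cdk6* was 40.5, 33.6 and 38.8 CPM in WT and 103, 106 and 80.2 CPM in BM, a rise of 1.37 ± 0.12, or 2.58-fold (adjusted p = 1.14e-06). At day 10 RPFs were 15.7, 12.1 and 18.0 CPM in WT, 25.9, 22.9 and 17.9 CPM in B, 27.3, 28.8 and 22.6 CPM in M and 44.7, 38.5 and 38.2 CPM in BM. M and BM again lay above WT throughout, and B overlapped with WT by 1 mouse. The rise was 0.52 ± 0.18 in B (adjusted p = 0.0746), 0.78 ± 0.16 in M (adjusted p = 0.0207) and 1.39 ± 0.19, or 2.63-fold, in BM (adjusted p = 0.00163). In RNA the rise in BM at day 10 was 1.65 ± 0.17, or 3.15-fold (adjusted p = 0.000199), the largest RNA rise of the 9 genes tested there.

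The calls of *Cdk6* in B rested on single mice. The RPF call in B was lost at day 4 without WT mouse 1 or 3 or B mouse 2 (adjusted p = 0.109 to 0.191) and at day 10 without WT mouse 1 or 2 or B mouse 1 or 2 (adjusted p = 0.168 to 0.208). In RNA it was lost at day 4 without B mouse 2 (adjusted p = 0.124) and at day 10 without WT mouse 3 (adjusted p = 0.116). BM lay above M in RPFs at day 4 (0.40, adjusted p = 0.0101) and at day 10 (0.61, adjusted p = 0.0376), the latter not called without M mouse 1 (adjusted p = 0.126). In RNA the same difference was 0.50, adjusted p = 0.00852 at day 4 and 0.52, adjusted p = 0.058 at day 10, the latter not called without M mouse 2 or 3 or BM mouse 2 (adjusted p = 0.116 to 0.199). Its effects were not called as different between the days (lowest adjusted p = 0.231 in RPFs and 0.373 in RNA). Without BM mouse 1 of day 10 the change from WT was 1.32, adjusted p = 4.72e-05 in RPFs and 1.50, adjusted p = 3.32e-06 in RNA.

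*Cdk4*, the other D-cyclin kinase, was higher in M and BM on both days. At day 4 RPFs were 7.87, 5.09 and 7.22 CPM in WT, 9.21, 11.6 and 9.17 CPM in M and 12.7, 10.9 and 12.4 CPM in BM. M and BM each lay above all WT mice and overlapped with each other. The rise was 0.59 ± 0.18 in M (adjusted p = 0.038) and 0.83 ± 0.17, or 1.78-fold, in BM (adjusted p = 0.00186), and the call in M was lost without M mouse 2 (adjusted p = 0.113). At day 10 RPFs were 7.36, 5.79 and 5.63 CPM in WT, 12.1, 12.4 and 9.70 CPM in M and 13.4, 11.6 and 9.97 CPM in BM. The rise was 0.85 ± 0.17, or 1.80-fold, in M (adjusted p = 0.018) and 0.88 ± 0.21, or 1.84-fold, in BM (adjusted p = 0.0134), and BM and M were not called as different at either day. Without BM mouse 1 the change in BM at day 10 was 0.77, adjusted p = 0.00497. Summed RPFs of 5 Kupffer cell markers in M at day 4, 334 to 862 CPM, were highest in mouse 2, against 523 to 607 CPM in WT, and their part in the call of *Cdk4* there was not tested. In B *Cdk4* was not called at day 4 (-0.03, adjusted p = 0.947), and at day 10, with 8.24, 9.05 and 9.16 CPM, it rose by 0.47 ± 0.17 (adjusted p = 0.0908), which was not called without WT mouse 2 or 3 or B mouse 1 or 2 or 3 (adjusted p = 0.114 to 0.252) nor by DESeq2 (adjusted p = 0.195).

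RNA of *Cdk4* was 22.3, 23.8 and 21.9 CPM in WT, 27.5, 29.0 and 27.7 CPM in M and 28.7, 30.9 and 31.2 CPM in BM at day 4. The rise of 0.43 ± 0.12 in BM (adjusted p = 0.0145) was called without each mouse, whereas that of 0.33 ± 0.12 in M (adjusted p = 0.073) was not called without WT mouse 1 or 3 or M mouse 1 or 2 or 3 (adjusted p = 0.128 to 0.183) nor by DESeq2 (adjusted p = 0.269). At day 10 it was 23.3, 21.9 and 23.1 CPM in WT, 32.4, 35.5 and 30.8 CPM in M and 35.0, 28.8 and 29.2 CPM in BM. The change was 0.56, adjusted p = 0.0148 in M and 0.44, adjusted p = 0.0458 in BM, the latter not called without WT mouse 1 or 2 or 3 (adjusted p = 0.12 to 0.144) nor by DESeq2 (adjusted p = 0.127). The transcript on which RPFs of *Cdk4* were counted held 22.2% to 29.0% of the RNA counts of the gene (group means), and the RNA of that transcript alone was not called in a comparison with WT (lowest adjusted p = 0.124).

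The E cyclins had the largest RPF rises of the 10 genes in BM at day 4, from low counts. RPF counts of *Ccne1* were 15, 15 and 6 in WT and 101, 50 and 52 in BM at day 4, or 1.37, 1.82 and 0.676 CPM and 6.24, 3.29 and 3.45 CPM. All BM mice lay above the WT mice and the rise was 1.76 ± 0.36, or 3.38-fold (adjusted p = 0.00233). M at day 4, with 1.84, 1.68 and 1.82 CPM, was not called (0.49, adjusted p = 0.31). At day 10 the WT counts were 8, 12 and 2 and the levels were 0.701, 1.22 and 0.239 CPM in WT, 1.49, 1.62 and 2.21 CPM in B, 3.22, 2.64 and 4.00 CPM in M and 1.57, 1.39 and 1.24 CPM in BM. M held the highest 3 values of that day and rose by 2.13 ± 0.41, or 4.38-fold (adjusted p = 0.0159). BM at day 10 was not called against WT (0.91, adjusted p = 0.163) and without BM mouse 1 it was 0.81, adjusted p = 0.189, but it was called with all 24 mice in 1 fit (adjusted p = 0.0676). It lay below M by 1.23 ± 0.26 on the log2 scale (adjusted p = 0.0182), whereas at day 4 it lay above M by 1.25 ± 0.29 (adjusted p = 0.00949). The change between days of the difference of BM from M was not tested. The rise in B at day 10 (1.24, adjusted p = 0.091) was not called without WT mouse 1 or 3 or B mouse 1 or 2 or 3 (adjusted p = 0.115 to 0.238) nor by DESeq2 (adjusted p = 0.132), and the larger effect of B at day 10 than at day 4 (2.03, adjusted p = 0.0589) was not called without WT mouse 1 or 2 or B mouse 1 at day 4, or WT mouse 1 or 3 at day 10 (adjusted p = 0.116 to 0.135). RNA of *Ccne1* rose in BM at day 4 (1.70, adjusted p = 0.0141), from 1.14, 1.31 and 1.45 CPM to 7.14, 3.46 and 1.95 CPM, and without BM mouse 1 of day 4 the rise was 1.07, adjusted p = 0.0819.

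*Ccne2*, the second E cyclin, had 0.823, 1.21 and 1.35 CPM of RPFs in WT, 1.83, 1.77 and 1.45 CPM in B, 3.95, 2.68 and 5.63 CPM in M and 9.88, 4.73 and 6.97 CPM in BM at day 4. M and BM lay above all WT and B mice. It rose by 1.88 ± 0.35, or 3.69-fold, in M (adjusted p = 0.00331) and by 2.70 ± 0.33, or 6.49-fold, in BM (adjusted p = 7.24e-05), the largest change of the 10 genes in a comparison with WT. Its RNA was 3.41, 5.24 and 4.58 CPM in WT, 7.39, 5.92 and 11.8 CPM in M and 16.7, 11.8 and 13.3 CPM in BM, and the BM rise was 1.66 ± 0.23, or 3.16-fold (adjusted p = 6.07e-05). The RNA rise in M (0.91, adjusted p = 0.0512) was not called without WT mouse 1 or 3 or M mouse 3 (adjusted p = 0.121 to 0.186), nor with all 24 mice in 1 fit (adjusted p = 0.106). BM and M mice overlapped by 1 mouse each, and their difference in RPFs (0.80, adjusted p = 0.0766) was not called without M mouse 1 or 2 or BM mouse 1 or 3 (adjusted p = 0.135 to 0.242), nor that in RNA (0.76, adjusted p = 0.0301) without M mouse 1 or 2 or BM mouse 1 (adjusted p = 0.116 to 0.138). With all 24 mice in 1 fit the difference in RPFs was not called (adjusted p = 0.160).

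At day 10 *Ccne2* RPFs were 1.05, 1.12 and 0.599 CPM in WT, 2.52, 1.84 and 3.38 CPM in B, 1.10, 2.05 and 5.16 CPM in M and 2.56, 3.41 and 5.19 CPM in BM. B and BM lay above all WT mice, and M spread from within the WT range to the level of the highest BM mouse. The change was 1.43 ± 0.36, or 2.70-fold, in B (adjusted p = 0.0244) and 1.95 ± 0.39, or 3.87-fold, in BM (adjusted p = 0.00751), and M was not called by edgeR (1.54, adjusted p = 0.125). M was called by DESeq2 (adjusted p = 0.0630) and with all 24 mice in 1 fit (adjusted p = 0.0500). Without BM mouse 1 the change in BM was 2.16, adjusted p = 0.000307. In RNA it rose in BM (1.08, adjusted p = 0.0332), from 5.47, 5.29 and 5.90 CPM to 6.53, 12.2 and 17.3 CPM, and this was not called without WT mouse 1 or 2 or BM mouse 3 (adjusted p = 0.108 to 0.111). Its RNA in BM against M at day 10 was 0.97, adjusted p = 0.121 and, without BM mouse 1, 1.27, adjusted p = 0.0114. It was called by DESeq2 (adjusted p = 0.0905) and with all 24 mice in 1 fit (adjusted p = 0.0245).

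*Cdk2*, the kinase of the E cyclins, rose in RPFs of BM at day 4 and fell at day 10, while its RNA was not called. At day 4 its RPFs were 8.78, 9.09 and 6.43 CPM in WT, 14.7, 12.8 and 11.3 CPM in B, 9.74, 9.80 and 9.62 CPM in M and 16.8, 11.8 and 15.6 CPM in BM. All mice of the mutant genotypes lay above the WT mice. It rose by 0.87 ± 0.17, or 1.83-fold, in BM (adjusted p = 0.00177) and by 0.65 ± 0.17 in B (adjusted p = 0.0357), the latter lost without WT mouse 3 (adjusted p = 0.124). M was not called against WT (0.29, adjusted p = 0.193), and BM lay above M (0.57, adjusted p = 0.0117). At day 10 RPFs were 9.73, 6.81 and 8.62 CPM in WT, 5.57, 5.96 and 7.92 CPM in B, 6.23, 7.56 and 6.24 CPM in M and 4.71, 4.18 and 4.37 CPM in BM. The BM mice were the lowest of that day, without overlap with another group. The change from WT was -0.94 ± 0.21, or 0.522-fold, in BM (adjusted p = 0.0113) and -0.98, adjusted p = 0.00245 without BM mouse 1, and the lower level in BM than in M (-0.61, adjusted p = 0.0586) was not called without M mouse 1 or 2 or BM mouse 2 or 3 (adjusted p = 0.137 to 0.216). The effect was lower at day 10 than at day 4 by -1.80 ± 0.27 in BM (adjusted p = 0.000759) and -1.04 ± 0.27 in B (adjusted p = 0.0277).

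RNA of *Cdk2* was 12.5, 15.1 and 13.7 CPM in WT and 14.3, 12.4 and 12.6 CPM in BM at day 4, and 9.67, 11.2 and 13.8 CPM and 9.30, 13.3 and 11.7 CPM at day 10. The groups overlapped on both days (lowest adjusted p over its RNA comparisons = 0.276).

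Translation efficiency (TE), the RPF level relative to the RNA level, was tested by asking in 1 model whether a group difference was larger in RPF than in RNA libraries. This model did not take both libraries of a mouse together. In it, of the 9 or 10 genes tested in a comparison, *Cdk2* was the one called. At day 4 its log2 TE was -0.51, -0.73 and -1.10 in WT, 0.41, -0.12 and 0.22 in B, -0.15, -0.29 and -0.12 in M and 0.23, -0.07 and 0.31 in BM. The mice of B, M and BM all lay above the WT mice. TE rose by 0.92 ± 0.24 in BM (adjusted p = 0.0697), where 1 of 10 genes was called against 2.23% of all genes, and this was not called without WT mouse 2 or 3 or BM mouse 1 or 3 (adjusted p = 0.166 to 0.305). In B the fitted change was of the same size, 0.92 ± 0.24, and was not called (adjusted p = 0.952). At day 10 the log2 TE of *Cdk2* was 0.01, -0.71 and -0.68 in WT and -0.98, -1.67 and -1.42 in BM, which did not overlap. The change was -0.94, adjusted p = 0.352 with BM mouse 1 and -1.11, adjusted p = 0.0275 without it. The effect of BM on TE of *Cdk2* was lower at day 10 than at day 4 by -1.83 ± 0.37 (adjusted p = 0.0342), with 1 of 10 genes called against 0.31% of all genes. It was not called without WT mouse 2 or 3 or BM mouse 1 or 3 at day 4, or WT mouse 1 or BM mouse 2 or 3 at day 10 (adjusted p = 0.105 to 0.206). Nor was it called with RNA of the RPF transcript only (adjusted p = 0.214).

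In the other TE comparisons edgeR and DESeq2 called 0 of the genes. The share of all genes called at day 4 was 0.0488% for B and 0.971% for M. At day 10 it was 0.0564% for B, 0.0% for M and 0.259% for BM, and it was 0.0% for the change of the B effect and 0.0% for that of the M effect between days. An unadjusted p under 0.05 was reached by 1 gene for B and 3 for M at day 4, by 2 for B, 1 for M and 1 for BM at day 10, and by 1 for each of these changes between days. Without BM mouse 1, 3 genes were called for BM at day 10, *Cdk2*, *Cdkn1b* (0.55, adjusted p = 0.0779) and *Rb1* (-0.84, adjusted p = 0.0817), against 21.5% of all genes in that fit. With the mouse as a block, which takes both libraries of a mouse together, TE calls over all genes numbered 28 for B, 276 for M and 650 for BM at day 4 (5, 101 and 235 without the block) and 276, 34 and 543 at day 10 (6, 0 and 27 without it). For the changes between days they numbered 7, 1 and 205 (0, 0 and 34 without it). Among the 10 genes, with the block, TE of *Ccnd1* fell in M at day 4 (-0.67, adjusted p = 0.0185, against adjusted p = 0.225 without the block) and rose in B at day 10 (0.91, adjusted p = 0.00123, against adjusted p = 0.936 without it). Its log2 TE was -0.94, -1.29 and -1.14 in WT and -1.57, -1.67 and -2.25 in M at day 4, and -1.49, -1.56 and -2.28 in WT and -0.84, -0.85 and -0.68 in B at day 10. Neither pair of groups overlapped.

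**Figure D3:**
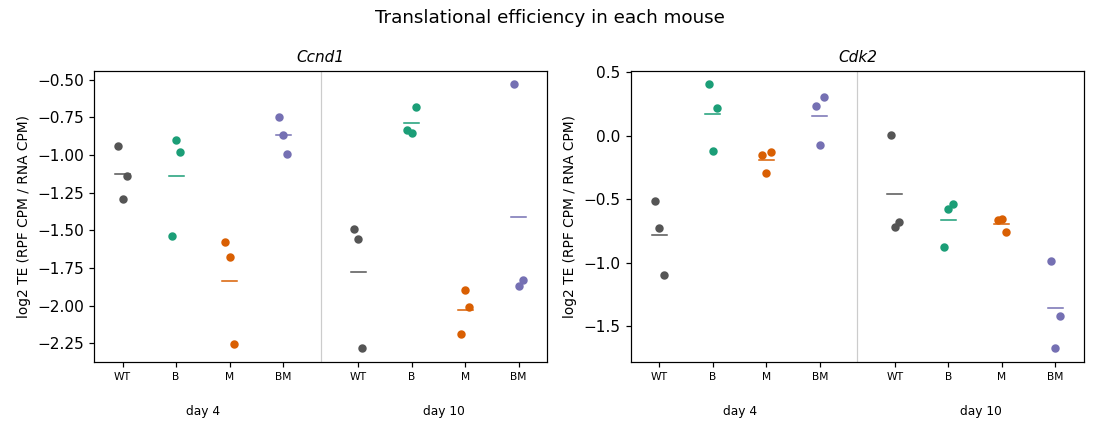
Log2 TE (RPF CPM over RNA CPM, vertical axis) of *Ccnd1* and *Cdk2* in each of the 24 mice by genotype and day, with a line at the mean of 3 mice. The *Cdk2* values of B, M and BM lie above WT at day 4, and those of BM are the lowest at day 10.

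Of the brakes, *Cdkn1b* fell in RPFs of M on both days, and *Rb1* was not called in RPFs. *Cdkn1b* RPFs were 20.6, 15.1 and 19.1 CPM in WT and 13.6, 15.7 and 12.0 CPM in M at day 4, and 19.3, 20.2 and 21.4 CPM in WT and 14.7, 14.5 and 17.2 CPM in M at day 10. M overlapped with WT at day 4 by 1 mouse and lay below it at day 10. The fall in M was -0.38 ± 0.15 at day 4 (adjusted p = 0.0843) and -0.40 ± 0.12 at day 10 (adjusted p = 0.0585). The first was not called without WT mouse 1 or 3 or M mouse 1 or 3 (adjusted p = 0.155 to 0.265) and the second was not called without WT mouse 1 or 2 or 3 or M mouse 1 or 2 (adjusted p = 0.1 to 0.187), and by DESeq2 neither was called (adjusted p = 0.101 and 0.14). With all 24 mice in 1 fit neither fall was called (adjusted p = 0.138 and 0.153). Scaled to library totals the changes were -0.16, adjusted p = 0.448 and -0.15, adjusted p = 0.4, where the medians of all genes were 0.23 and 0.24. BM at day 4, with 23.5, 16.2 and 19.0 CPM, lay above M (0.48, adjusted p = 0.0374), which was not called without M mouse 1 or 3 or BM mouse 1 (adjusted p = 0.101 to 0.105).

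RNA of *Cdkn1b* was 34.1, 44.7 and 39.9 CPM in WT and 30.9, 30.6 and 32.2 CPM in BM at day 10, and 33.4, 29.0 and 34.0 CPM and 46.2, 32.8 and 38.5 CPM at day 4. BM lay below WT at day 10 and overlapped with it at day 4. The fall at day 10 (-0.35, adjusted p = 0.0937) was not called without WT mouse 2 or 3 or BM mouse 2 or 3 (adjusted p = 0.171 to 0.225) nor by DESeq2 (adjusted p = 0.198), and scaled to library totals the difference was 0.05, where the median of all genes was 0.43. The effect of BM on its RNA was lower at day 10 than at day 4 by -0.65 ± 0.21 (adjusted p = 0.0358). It was not called with RNA of the RPF transcript only (-0.55, adjusted p = 0.222). In RPFs of BM at day 10 mouse 1 had the lowest level and mice 2 and 3 the highest of the group and of WT, at 13.8, 22.7 and 24.6 CPM, and the change was -0.01, adjusted p = 0.971 with mouse 1 and 0.21, adjusted p = 0.195 without it. Against M it was 0.38, adjusted p = 0.278 with mouse 1 and 0.65, adjusted p = 0.00543 without it, and with that mouse it was called with all 24 mice in 1 fit (adjusted p = 0.0720).

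*Rb1*, which encodes RB, had 9.97, 11.3 and 9.25 CPM of RPFs in WT and 14.1, 11.3 and 9.22 CPM in BM at day 4, and 11.0, 8.64 and 12.9 CPM and 16.1, 9.14 and 9.07 CPM at day 10. The groups overlapped in each comparison with WT, and *Rb1* was not called in RPFs (lowest adjusted p over the comparisons = 0.36, and for BM at day 10 without mouse 1 -0.26, adjusted p = 0.27). In RNA *Rb1* was 12.2, 20.4 and 18.0 CPM in WT, 13.6, 14.7 and 18.4 CPM in M and 22.2, 24.6 and 25.8 CPM in BM at day 10, with every BM mouse above the others. The difference was 0.51, adjusted p = 0.0851 from WT and 0.61, adjusted p = 0.037 from M. The first was not called without WT mouse 1 or 3 or BM mouse 2 or 3 (adjusted p = 0.159 to 0.267) nor by DESeq2 (adjusted p = 0.139), and the second was not called without M mouse 1 or 2 or BM mouse 2 or 3 (adjusted p = 0.106 to 0.139). With BM mouse 1 left out, RNA changes from WT at day 10 were 0.33, adjusted p = 0.074 for *Cdk4*, 1.38, adjusted p = 0.00057 for *Ccne2*, -0.36, adjusted p = 0.0763 for *Cdkn1b* and 0.56, adjusted p = 0.0447 for *Rb1*.

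Levels were compared between genes per length. RPF CPM per kilobase of counted coding sequence in WT at day 4 was highest for *Ccnd1*, at 46.1 ± 4.62 (SD, n = 3), and *Cdkn1b*, at 36.4 ± 5.59, whose ranges overlapped. *Ccnd3*, *Cdk4* and *Cdk6* followed at 20.4 ± 0.441, 17.5 ± 3.78 and 17.0 ± 1.97, each overlapping with the next. *Ccnd2* (11.5 ± 1.66) and *Cdk2* (10.1 ± 1.81) overlapped with each other and lay above *Rb1* (3.80 ± 0.384), and the E cyclins were lowest, at 1.14 ± 0.507 for *Ccne1* and 1.01 ± 0.245 for *Ccne2*. At day 10 *Cdkn1b* was first in WT, at 40.5 ± 2.15, above *Ccnd1* at 24.04 ± 8.90. Of the BM levels at day 10 *Cdk6* was first, at 45.6 ± 4.10, with a range that overlapped with *Cdkn1b* at 40.7 ± 11.6. That order rested on BM mouse 1, since in mice 2 and 3 *Cdk6* was 43.3 and 43.1 and *Cdkn1b* 45.3 and 49.2. *Ccnd2* (3.60 ± 1.32) had moved below *Cdk2* (5.50 ± 0.335) and *Rb1* (4.27 ± 1.50), overlapping with the latter.

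The RNA order, from the TPM values of the authors (transcript abundance scaled to transcript length and library), placed *Cdk4* higher. In WT at day 4 *Ccnd1* (23.9 ± 3.02 TPM) and *Cdk4* (22.1 ± 2.20 TPM) overlapped at the top, *Cdkn1b* followed (13.4 ± 1.47 TPM) and *Cdk6* came after *Rb1* (3.54 ± 0.445 TPM). In BM at day 10 *Cdk6* came next after *Cdkn1b*, at 21.1 ± 4.25 TPM, and *Ccnd2* had the lowest mean, at 1.87 ± 1.59 TPM, overlapping with *Ccne1*.

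The rest of the G1 to S pathway was counted from a list of 43 genes of 6 roles (other CDK inhibitors, pocket proteins and the DREAM complex, E2F and DP factors, CDK activation, turnover of cyclins and Kip proteins, and entry to S phase). In RPFs of B, 4 rose and 2 fell of 38 tested at day 4 and 7 rose and 2 fell of 39 at day 10. In M the counts were 14 rose and 4 fell of 38 at day 4 and 13 rose and 3 fell of 39 at day 10, and in BM 20 rose and 3 fell of 39 and 12 rose and 6 fell of 38. The percentages of all genes called in these comparisons are those given with the first counts above, and the median change of the list was 0.35 in BM at day 4 and 0.25 at day 10. In BM at day 4, 5 of 5 genes of entry to S phase rose, among them *Mki67* (5.86 ± 0.26), a marker of proliferating cells, *Ccna2* (6.05 ± 0.30), the cyclin of S and G2, *Cdk1* (4.85 ± 0.24), the mitotic kinase, and *Cdt1* (2.60 ± 0.23), which licenses origins, with adjusted p of 1.01e-07, 1.56e-07, 1.72e-07 and 6.15e-06 in edgeR's test. The effect of BM was lower at day 10 than at day 4 for 16 genes of the list and higher for 4 of 39 tested, against 35.7% of all genes. In BM at day 10, *E2f8*, a repressor of the E2F family, and *Rbbp4*, a histone-binding subunit of DREAM, fell by 3.82 and 1.27 on the log2 scale (adjusted p = 0.000117 and 0.000941), and *Tfdp1*, a DP partner of E2F, and *Fbxo31*, an F-box protein of cyclin D turnover, rose by 1.22 and 1.59 (adjusted p = 0.0021 and 0.00249), and without BM mouse 1 these changes were -4.12, adjusted p = 3.65e-07 for *E2f8*, -1.29, adjusted p = 1.05e-05 for *Rbbp4*, 1.30, adjusted p = 3.55e-05 for *Tfdp1* and 1.80, adjusted p = 1.24e-06 for *Fbxo31*.

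*Cdkn1a* (p21), the CDK inhibitor related to p27, had 81.8, 77.6 and 78.8 CPM of RPFs in WT, 13.3, 27.6 and 42.1 CPM in B, 54.9, 42.7 and 40.2 CPM in M and 50.3, 43.4 and 47.2 CPM in BM at day 4. All mutant mice lay below WT, and it fell by 1.54 for B, fell by 0.76 for M and fell by 0.75 for BM on the log2 scale (adjusted p = 0.00702, 0.00103 and 3.02e-05). At day 10 it was 19.6, 10.1 and 14.2 CPM in WT, 46.8, 34.9 and 33.5 CPM in B, 18.8, 16.9 and 23.4 CPM in M and 61.1, 106 and 129 CPM in BM. B and BM lay above all WT mice, with rises of 1.36 ± 0.23 (adjusted p = 0.00437) and 2.74 ± 0.34, or 6.67-fold (adjusted p = 0.00134). The effect was higher at day 10 than at day 4 in B (2.90, adjusted p = 0.00127), M (1.18, adjusted p = 0.0798) and BM (3.49, adjusted p = 7.24e-05). The WT level itself was 77.6 to 81.8 CPM at day 4 and 10.1 to 19.6 CPM at day 10. Its change in BM at day 10 was 2.99, adjusted p = 9.87e-07 without BM mouse 1.

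*Rbl1* (p107), a pocket protein related to RB and an E2F target, had 4.57, 4.85 and 5.98 CPM of RPFs in WT and 24.1, 16.7 and 18.7 CPM in BM at day 4, without overlap. It rose by 1.97 ± 0.17, or 3.91-fold, in BM (adjusted p = 6.44e-06) and 0.96 ± 0.18 in M (adjusted p = 0.00361), and at day 10 by 1.07 ± 0.25 in B (adjusted p = 0.0194). In BM at day 10 it was 5.23, 3.02 and 2.80 CPM against 5.87, 9.35 and 4.67 CPM in WT and fell by 0.85 on the log2 scale (adjusted p = 0.0872). *Rbl2* (p130), the pocket protein of quiescent cells, was not called in RPFs (lowest adjusted p = 0.291), with 18.8, 24.7 and 20.9 CPM in WT and 21.0, 25.2 and 20.8 CPM in BM at day 4. *E2f1*, an activating E2F, had 2.19, 2.24 and 1.92 CPM in WT and 1.28, 0.542 and 0.659 CPM in BM at day 10 and fell (-1.33, adjusted p = 0.0273). The change in BM at day 10 was -1.20, adjusted p = 0.00548 for *Rbl1* and -1.81, adjusted p = 0.00177 for *E2f1* without BM mouse 1. At day 4 RNA of *E2f1* rose in M (1.06, adjusted p = 0.0343) and BM (1.60, adjusted p = 0.000661), and its RPFs were not called (0.06, adjusted p = 0.868 in M, 0.02, adjusted p = 0.945 in BM).

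**Figure D4:**
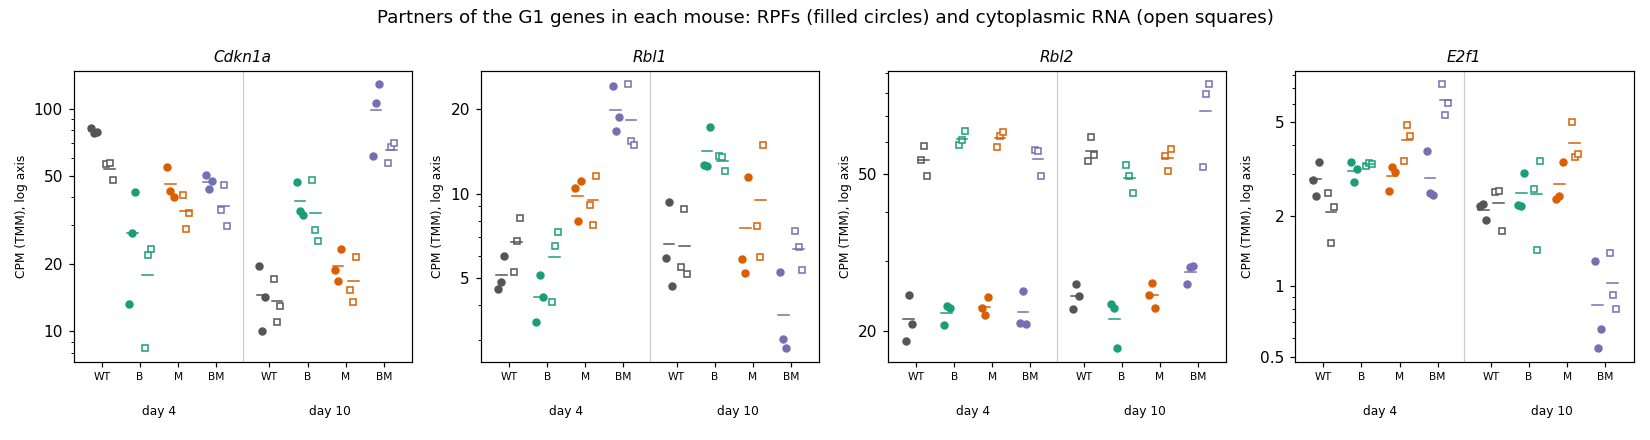
RPF level (filled circles) and cytoplasmic RNA level (open squares) in CPM (TMM scaled, log axis) of *Cdkn1a*, *Rbl1*, *Rbl2* and *E2f1* in each of the 24 mice by genotype and day, with a line at the mean of 3 mice. *Cdkn1a* is highest in WT among the genotypes of day 4 and highest in BM among those of day 10.

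Likeness over the 24 mice was described by Pearson's r of log2(CPM + 1), over genes with a mean of at least 5 CPM (8449 genes in RPFs), with points that share genotype, day and library scaling. The *Ccne2* pattern in RPFs was most like that of *Pcna*, *Ncapg2* and *Gins1* (r = 0.92 to 0.91), and that of *Cdk6* most like *Nln*, *Ecpas* and *Ipo11* (r = 0.94 to 0.92). *Ccnd1* was most like *Slc1a4*, *Leprotl1* and *Pfkfb3* (r = 0.87 to 0.84), *Ccnd2* most like *Pdzk1*, *Pex6* and *Elovl3* (r = 0.94 to 0.93) and *Cdk4* most like *Atic*, *Nle1* and *Prmt3* (r = 0.90 to 0.88). *Rb1* had the lowest such values, with *Cdk8*, *Dsp* and *Dgkd* (r = 0.78 to 0.71). Among the 10 genes, *Cdk4* and *Cdk6* were the pair most alike in RPFs (r = 0.76) and in RNA (r = 0.78), and *Ccnd2* and *Cdk6* ran in opposite directions (r = -0.70 in RPFs).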

How the data were processed

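Each of 24 livers gave an RPF and a cytoplasmic RNA library, and genotype, day and mouse number came from the sample labels. Both libraries come from 1 mouse, and the deviations of its RPFs and RNA from the group means correlated with r = 0.306 to 0.674. Reads of RPFs were trimmed by the authors (cutadapt 1.18). The authors removed duplicates by UMI, aligned RPFs to 1 transcript per gene with BBmap and deposited raw counts per coding sequence, from reads of 30 to 38 bases. For RNA the authors aligned with Bowtie2 2.3.5.1 and estimated expected counts per isoform with RSEM 1.3.3, which were deposited together with TPM values. A transcript absent from the RPF counts of a library was taken as 0. Here expected counts were summed per gene and rounded, and the authors' TPM values served only for levels between genes. The deposited FPKM and isoform percent columns were not used here.

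Groups were compared in R 4.3.3 with edgeR 4.0.16 (quasi-likelihood F test, TMM, filterByExpr with a minimum count of 10 and a minimum total of 15, only the groups compared, 3 mice each), called at a Benjamini-Hochberg adjusted p under 0.1 over all genes tested. TE was the interaction of genotype and library type, without a mouse block. DESeq2 1.42.0 was an alternative here, and DESeq2 is the tool the study names for RPFs, cytoplasmic RNA and TE. The other alternatives were RLE size factors, no low-count filter, all 24 mice in 1 fit, a replicate block, RNA of the RPF transcript only and each mouse left out. Scaling to library totals was added after seeing the data. The scripts were tested on simulated data. The 10 genes, the pathway and marker lists and the tests were chosen with earlier results of these data known. Text values follow a rule: all 10 genes, at most 5 pathway genes per comparison by adjusted p, *Cdkn1a*, *Rbl1*, *Rbl2* and *E2f1*, and the 3 genes most like each by r. The 6 cell type lists held 33 markers. Of the leukocyte list 5 markers were summed, and 1 is not reported here. No 2 libraries of a group agreed within sampling noise (lowest chi-square per degree of freedom 2.958 over 48 pairs). Neither the labels nor the methods give a library or sequencing batch. Day 4 and day 10 mice were induced at different times and killed together.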

Additional observations from a re-analysis of the deposited data

Results flagged for a closer look

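The effect of a genotype differed between the days, by edgeR's test of the difference itself with 3 mice per group, for 8 values. For B the RPF effect at day 10 minus that at day 4 was 1.69 for *Ccnd1* (adjusted p = 0.0187), 2.03 for *Ccne1* (adjusted p = 0.0589) and -1.04 for *Cdk2* (adjusted p = 0.0277). Over all genes 17.2% were called there, and the call of *Ccne1* was lost without 5 of the 12 mice. For BM it was -1.80 for *Cdk2* (adjusted p = 0.000759) and -1.50 for *Ccnd2* (adjusted p = 0.00561) in RPFs, against 35.7% of all genes. In RNA the BM effect changed by -1.49 for *Ccnd2* (adjusted p = 0.0222) and by -0.65 for *Cdkn1b* (adjusted p = 0.0358), against 29.9% of all genes. With RNA of the RPF transcript only, the *Cdkn1b* call ended (-0.55, adjusted p = 0.222). The change in TE for BM was -1.83 for *Cdk2* (adjusted p = 0.0342), a gene whose RNA was not called, against 0.31% of all genes. This TE call was lost without 7 of the 12 mice and with RNA of the RPF transcript only (adjusted p = 0.214).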

How the results depend on the processing

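Over the values of the 10 genes, 4037 of 4276 alternatives kept the side of the threshold, 158 lost a call and 76 gained one. Another 5 reversed a change that was called in the edgeR fit or in the alternative. Changes called in neither could change sign among the 4037. The RPF change of *Ccnd1* in BM against WT at day 10 did so without BM mouse 1. Of 75 calls, 43 held without each mouse in turn and 32 were lost without at least 1. With each mouse left out in turn, the count of genes called in RPFs ranged from 0 to 2 in B at day 4, 2 to 5 in B at day 10, 1 to 7 in BM against M at day 10 (7 without BM mouse 1), 0 to 1 for the change of the M effect between days and 2 to 4 for that of the BM effect (4 without BM mouse 1 of day 10). In RNA it ranged from 0 to 1 in B at day 4, 0 to 2 in B at day 10, 2 to 4 in M at day 4, 3 to 6 in BM at day 10, 2 to 4 in BM against M at day 4, 0 to 5 in BM against M at day 10 and 0 to 1 for the change of the B effect. In TE it ranged from 0 to 1 in BM at day 4, 0 to 3 in BM at day 10 (3 without mouse 1) and 0 to 1 for the change of the BM effect. In the same fits the share of all genes called ranged, in that order, over 6.84% to 11.9%, 14.1% to 28.7%, 12.6% to 59.2%, 0.0342% to 6.05% and 27.6% to 57.3% in RPFs, with 59.2% and 57.3% without BM mouse 1. It ranged over 4.77% to 8.56%, 8.27% to 18.5%, 15.0% to 22.5%, 34.3% to 57.1%, 21.1% to 30.9%, 17.9% to 50.4% and 6.27% to 11.3% in RNA and 0.92% to 1.97%, 0.0564% to 21.5% and 0.161% to 13.2% in TE, with 21.5% in BM at day 10 without mouse 1. The change of the BM effect in RPFs of *Ccnd1* ranged from -0.61 (without BM mouse 1 of day 10) to 0.62.

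With the mouse as a block, TE calls of *Ccnd1* made the count 1 instead of 0 in M at day 4 and in B at day 10. The replicate numbers did not pair mice across genotypes (correlations of same-numbered deviations from -0.239 to 0.282), and with the number as a block the RPF count in B at day 10 was 3 instead of 6 (without *Cdk4*, *Cdk6* and *Ccne1*), the RPF fall of *Cdkn1b* in M at day 4 was not called (adjusted p = 0.129) and the RNA count for the change of the B effect was 1 instead of 0. The latter was also 1 with RLE size factors, no low-count filter, DESeq2 and all 24 mice in 1 fit, the last of which gave 1 TE call instead of 0 in BM at day 10. DESeq2 gave 3 RNA calls instead of 6 in BM at day 10. Over all genes it called 2106 up and 2198 down there, against 2547 and 2541 by edgeR. With RNA of the RPF transcript only, RNA counts were 3 instead of 6 in BM at day 10, 2 instead of 4 in BM against M at day 4 and 1 instead of 2 for the change of the BM effect, whose TE count was 0 instead of 1. Scaled to library totals, RNA counts were 7 instead of 4 in M at day 4, 9 instead of 4 in BM at day 4 and 7 instead of 4 in BM against M at day 4, and the TE count in BM at day 4 was 0 instead of 1. That scaling reversed RNA changes in BM, which became 0.40 for *Ccnd3*, 0.49 for *Cdk2* and 0.55 for *Rb1* at day 4 and 0.046 for *Cdkn1b* at day 10, where the medians of all genes were 0.54 and 0.43. Beyond its own construction the cause of a change was not tested. Low counts limit the E cyclins most, with RNA of *Ccne1* tested in 4 of 11 comparisons.

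Counts over all genes, which stand behind the percentages called, moved by more than 1.5 times as follows. With all 24 mice in 1 fit, RPF counts were 577 instead of 1379 in B, 2388 instead of 3698 in M and 2712 instead of 4355 in BM against M at day 4, 6294 instead of 3769 in BM against M at day 10, and 1290 instead of 1997 and 31 instead of 136 for the changes of the B and M effects. RNA counts were then 457 instead of 895 in B and 1711 instead of 2653 in M at day 4 and 28 instead of 139 for the change of the M effect. That fit gave TE counts of 1 instead of 5, 11 instead of 101 and 136 instead of 235 in B, M and BM at day 4, 30 instead of 6 and 788 instead of 27 in B and BM at day 10 and 59 instead of 34 for the change of the BM effect. DESeq2 gave 258 instead of 136 RPF calls for the change of the M effect and TE counts of 26 instead of 6, 3 instead of 0 and 93 instead of 27 in B, M and BM at day 10, and 1 instead of 0 and 75 instead of 34 for the changes of the B and BM effects. Scaled to library totals, counts were 4472 instead of 2885 in B and 3820 instead of 2192 in M in RPFs at day 10, 1816 instead of 895, 5955 instead of 2653 and 8149 instead of 4698 in B, M and BM in RNA at day 4, 292 instead of 139 for the change of the M effect in RNA and 161 instead of 101 in TE of M at day 4. The change of the M effect in RNA had 383 calls with no low-count filter and 79 with the number as a block, and that of the B effect in TE had 1 instead of 0 with RNA of the RPF transcript only.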

Other observations

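In cytoplasmic RNA the wider G1 to S list of 43 genes had these calls. Called at day 4 were 1 up and 1 down of 35 tested for B, 8 up and 5 down of 38 for M and 20 up and 2 down of 40 for BM, against 8.14%, 23.7% and 41.9% of all genes. Called at day 10 were 7 up and 0 down of 38 for B, 7 up and 1 down of 37 for M and 10 up and 4 down of 33 for BM, against 15.6%, 15.7% and 45.7%. BM against M gave 20 up and 1 down of 40 at day 4 and 4 up and 4 down of 35 at day 10, against 30.5% and 32.9%. In edgeR's test the BM effect was lower at day 10 than at day 4 for 14 genes and higher for 4 of 40, against 29.9%.

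Over the 24 mice, RNA of *Ccnd2* ran most like that of *Adra1b*, *Gstm4* and *Tmt1b* (r = 0.97 to 0.95), among 9426 genes with a mean of at least 5 CPM. RNA of *Cdk6* ran most like *Nup214*, *Timm8a1* and *Chchd4* (r = 0.94 to 0.92), that of *Ccne2* most like *Smc4*, *Ncapd3* and *Suv39h1* (r = 0.86 to 0.83), whose products act on chromosomes, and that of *Cdk4* most like *Ipo4*, *Rplp0* and *Prmt7* (r = 0.91 to 0.91). In RPFs *Ccne1* was most like *Trp53*, *Snrpa1* and *Lyar* (r = 0.90 to 0.88) and *Cdk2* most like *Abhd6*, *Tsen34* and *Akr1c13* (r = 0.90 to 0.87). These are descriptions over mice that share genotype, day and scaling.

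Summed RNA of 5 cholangiocyte markers was 80.2 to 117 CPM in BM and 105 to 186 CPM in WT at day 4, and 104 to 132 and 86.0 to 142 CPM at day 10. In RPFs the sums were 36.2 to 54.1 and 85.2 to 133 CPM at day 4, without overlap, and 35.6 to 63.5 and 43.7 to 83.7 CPM at day 10.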
